A study of Schizosaccharomyces pombe with 6 samples.

Results

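The hexose transporters of fission yeast (*Schizosaccharomyces pombe*) that are described here are the products of *ght1*, *ght3*, *ght5*, *ght6* and *ght8*, and their mRNAs were followed in pull-downs of the long non-coding RNA *aal1*. The 5 genes were chosen by name, as members of the Ght family, and make up 5 of the 7001 gene identifiers in the count table. The other family genes, *ght2*, *ght4* and *ght7*, were used for comparison. The assay was ChIRP-seq, in which an RNA is drawn from the lysate of formaldehyde-fixed cells by biotinylated antisense DNA probes, and the RNAs that come down with it are sequenced. All cells were grown in EMMG minimal medium and collected on Day 6 of stationary phase. There were 3 strains with 2 libraries each, grown and processed independently: wild type (972h-), *aal1-pOE*, which carries *aal1* on a plasmid behind the thiamine-repressible P41nmt1 promoter, and *aal1∆*, a CRISPR-Cas9 deletion of the gene in 972h-. The plasmid strain has a 972h-/leu1-32 background, and no empty-vector library was analysed here, so an effect of *aal1* and an effect of the plasmid or background cannot be told apart in its comparisons. The *aal1∆* libraries are the background of the method, because the probes have no target there.

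Glucose and fructose enter fission yeast through the Ght proteins, which lie in the plasma membrane, span it many times and carry a sugar inward together with a proton. Ght5 is the high-affinity transporter that cells need for growth when glucose is scarce, and its gene is held down while glucose is plentiful. Ght1 is also annotated as a high-affinity glucose transporter, Ght6 as a glucose and fructose transporter, and Ght3 carries gluconate. Ght8 is annotated as a hexose transporter without further detail.

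The libraries were shallow. They held 40653 to 175263 counts each, the lowest and the highest both from *aal1∆*, and rRNA took 25.7% to 54.4% of them. The pull-down itself matched the labels. The 2 wild-type libraries had 28 and 147 counts of *aal1*, the *aal1-pOE* libraries 9540 and 20832, and the *aal1∆* libraries 0 and 0. It thus took 10.4% and 25.3% of the *aal1-pOE* counts, which lowers the share left to every other RNA there. SPNCRNA.401, which is annotated on the strand opposite *aal1*, was found with *aal1-pOE* alone (630 and 846 counts).

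The 5 genes resemble each other in sequence, and this bears on how reads are assigned between them. The coding sequences of *ght5* and *ght8* were identical at 92.2% of aligned positions (1510 of 1638), those of *ght1* and *ght5* at 78.4%, and *ght3* stood apart, at 61.8% to 64.8% with each of the others. The 60 coding nucleotides most alike in the 5 genes are given here because they show how far the genes are interchangeable to a short read. Each is given 5′ to 3′ on its own coding strand, with capitals at the positions that differ among the 5 genes, and with coordinates of the RefSeq assembly ASM294v3.
ght1, chrIII:233287-233346, minus strand: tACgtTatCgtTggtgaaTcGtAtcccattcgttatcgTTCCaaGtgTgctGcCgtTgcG
ght3, chrI:84097-84156, plus strand: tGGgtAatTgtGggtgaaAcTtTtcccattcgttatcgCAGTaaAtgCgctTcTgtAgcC
ght5, chrIII:213474-213533, plus strand: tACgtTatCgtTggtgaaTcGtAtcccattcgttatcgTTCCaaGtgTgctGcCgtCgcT
ght6, chrIII:205900-205959, plus strand: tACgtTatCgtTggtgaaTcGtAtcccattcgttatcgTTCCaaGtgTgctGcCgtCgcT
ght8, chrIII:227180-227239, minus strand: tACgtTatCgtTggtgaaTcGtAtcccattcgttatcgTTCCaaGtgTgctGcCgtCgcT
The stretch is the same in *ght5*, *ght6* and *ght8*. *ght1* differs from it at 2 positions and *ght3* at 18, and 42 of the 60 positions are the same in all 5 genes. Over the whole transcripts, 511 of the 1998 stretches of 67 nucleotides in *ght5* (25.6%) also occur elsewhere in the genome, 67 nucleotides being the length of a 75-base read after the first 8 bases are trimmed. The shares were 20.9% in *ght8*, 9.97% in *ght3*, 4.08% in *ght1* and 0.313% in *ght6*. All 511 of the repeated *ght5* stretches are shared with *ght8*, and the longest of them runs over 248 nucleotides. Reads placed at several loci are left out by the default of the counting tool, so reads within shared stretches would be missing from the counts of *ght5* and *ght8*, which was not tested.

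*ght5* and *ght8* were recovered far above the other members, in every library and also in the absence of *aal1*. Over the 6 libraries the 5 mRNAs had 2880 counts, of which *ght5* had 1954 (67.8%), *ght8* 783 (27.2%), *ght3* 124 (4.31%), *ght1* 19 (0.660%) and *ght6* none. On the scale of CPM (the count of a gene relative to the total of its library) per kilobase of transcript, *ght5* ranged from 1315 to 2477 with a median of 1564, *ght8* from 378 to 775 with a median of 560.0, *ght3* from 64.7 to 300 with a median of 86.5 and *ght1* from 0 to 41.2 with a median of 5.89. The ranges of *ght5*, *ght8*, *ght3* and *ght1* did not overlap, so the order held across all 6 libraries. *ght1* and *ght6* were both at 0 in *aal1∆* and have no order there. The plot of member levels by library shows the 4 levels and the missing *ght6*.

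**Figure D1:**
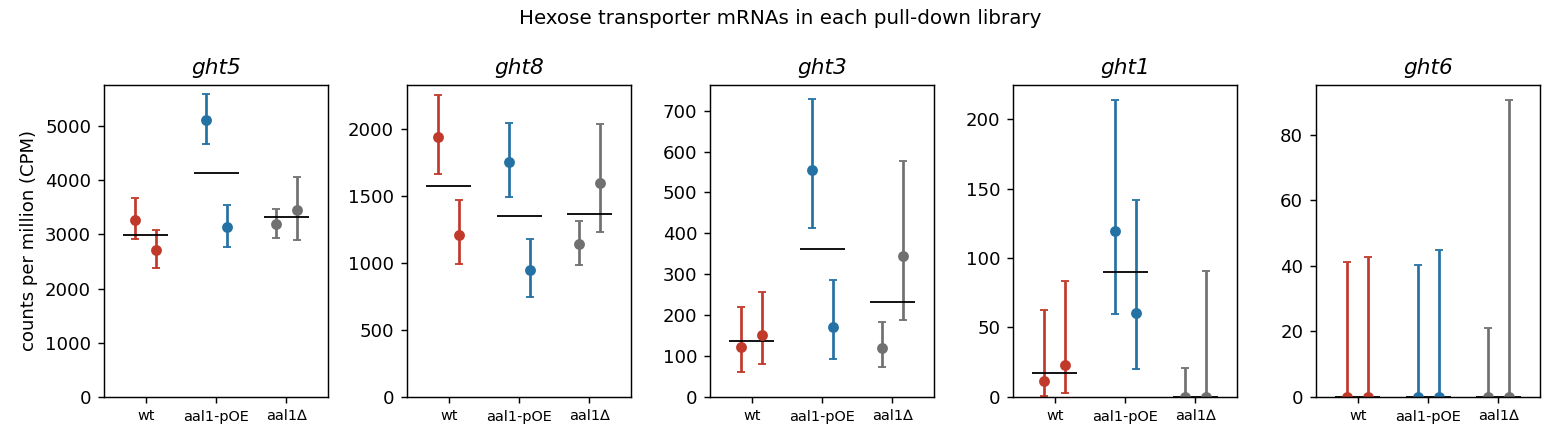
Level of each hexose transporter mRNA in each pull-down library, in CPM on the vertical axis, with points for the libraries of each strain and bars for exact 95% Poisson intervals, which cover counting error only. *ght5* lies between 2713 and 5113 CPM in all 6 libraries and *ght6* is at 0 in all of them.

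*ght5*, the high-affinity glucose transporter mRNA (SPCC1235.14, chrIII:212313-214376, plus strand, 1 exon), was recovered at 3274 and 2713 CPM in wild type, 5113 and 3135 CPM in *aal1-pOE*, against 3184 and 3444 CPM in *aal1∆*. The first *aal1-pOE* library was the highest, and the other 5 lay close together whether or not the cells had *aal1*. The means were 2994 ± 397 CPM in wild type, 4124 ± 1399 with the *aal1-pOE* plasmid and 3314 ± 184 in *aal1∆* (SD, n = 2 each). By counts it ranked between the third and the 16th of all nuclear mRNAs, the third place being in the first *aal1-pOE* library. No input RNA was analysed here, so a high recovery in the pull-down and a high level in the cell cannot be told apart for any member, nor can fewer cells with the RNA and less of it per cell.

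The comparison with *aal1∆* asks whether *ght5* RNA came down with *aal1*. In edgeR's quasi-likelihood test over 1329 RNAs, with Benjamini-Hochberg adjustment, wild type differed from *aal1∆* by a log2 fold change of -0.12 (SE 0.391, adjusted p = 1), with a 95% interval from -0.90 to 0.66. For *aal1-pOE* against *aal1∆* it was 0.46 (SE 0.391, adjusted p = 1), with an interval from -0.32 to 1.23. Against wild type, *aal1-pOE* was at 0.58 (SE 0.391, adjusted p = 0.995), with an interval from -0.20 to 1.36. None passed the threshold of 0.05. In CPM scaled by TMM, the between-library normalisation of the test, both *aal1-pOE* libraries (4929 and 3771) lay above both *aal1∆* libraries (3235 and 3109) and both wild-type libraries (2520 and 3315). In plain CPM the groups overlapped. Such separation upward was found for 17.1% of all tested RNAs against *aal1∆* and for 17.8% against wild type.

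*ght8* (SPCC548.06c, chrIII:226336-228845, minus strand, 1 exon), the nearest relative of *ght5* by sequence, was recovered at 1944 and 1212 CPM in wild type, 1752 and 948 CPM in *aal1-pOE*, against 1141 and 1599 CPM in *aal1∆*. Libraries of a strain differed as much as strains did, and the 3 strains overlapped. The means were 1578 ± 518, 1350 ± 568 and 1370.0 ± 324 CPM (SD, n = 2 each). The log2 fold change was 0.20 (SE 0.390, adjusted p = 1) for wild type against *aal1∆*, 0.13 (SE 0.391, adjusted p = 1) for *aal1-pOE* against *aal1∆* and -0.07 (SE 0.388, adjusted p = 0.995) for *aal1-pOE* against wild type in edgeR. The 95% intervals ran from -0.57 to 0.98, from -0.65 to 0.91 and from -0.84 to 0.70. With TMM scaling both wild-type libraries (1496 and 1481 CPM) lay just above both *aal1∆* libraries (1160 and 1443 CPM), a separation that 14.2% of all tested RNAs showed.

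*ght3*, which encodes the gluconate transporter (SPAC1F8.01, chrI:82936-84786, plus strand, 1 exon), is the only member on chromosome I. It was counted 11 and 13 times in wild type, 51 and 14 in *aal1-pOE*, against 21 and 14 in *aal1∆*. In CPM these were 123 and 150.1, 555 and 170.1, and 120 and 344. The first *aal1-pOE* library stood highest, and the second *aal1∆* library, which is the shallowest of the 6, came next. Both *aal1-pOE* libraries lay above both wild-type libraries, also in TMM-scaled CPM, where 17.8% of tested RNAs were separated in this way. The log2 fold change of *aal1-pOE* against wild type was 1.45 (SE 0.729, unadjusted p = 0.0502, adjusted p = 0.995 in edgeR), with a 95% interval from -0.0013 to 2.90, and it was 0.55 without the first *aal1-pOE* library and 1.97 without the second. Against *aal1∆* it was 0.88 (SE 0.720, adjusted p = 1) in *aal1-pOE*, and -0.57 (SE 0.755, adjusted p = 1) in wild type. The value for *aal1-pOE* against *aal1∆* depended on single libraries in both directions. It was 0.02 without the first *aal1-pOE* library and 1.40 without the second, and 0.27 without the first *aal1∆* library and 1.61 without the second.

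*ght1* (SPCC548.07c, chrIII:232288-235195, minus strand, 1 exon), the other high-affinity glucose transporter mRNA, was the only member found with *aal1* present and not without it, at very few counts. It was counted 1 and 2 times in wild type, 11 and 5 times in *aal1-pOE*, and not at all in *aal1∆* (0 and 0), which correspond to 11.2 and 23.1, 119.7 and 60.8, and 0 and 0 CPM. The 3 strains did not overlap, with *aal1-pOE* highest and *aal1∆* lowest. Among all 5174 RNAs with a count, 0.638% were separated in this order in plain CPM, a share computed after the values of *ght1* were seen. Of these RNAs 3271 had at least 10 counts in all, and those with the fewest counts cannot be separated in this way. The share is thus not a rate among RNAs that could have shown the order. A count of 0 still allows 3 counts per library, or a mean of 45.5 CPM over the 2 *aal1∆* libraries. The mean of *aal1-pOE*, at 90.2 ± 41.7 CPM (SD, n = 2), was 1.98-fold above this floor. That value leaves out the counting error of *aal1-pOE* itself and is not a lower bound. For the second *aal1∆* library alone 3 counts are 73.8 CPM, above the second *aal1-pOE* library at 60.8 CPM. The ratio of that mean to the floor became 1.22 without the first *aal1∆* library and 5.27 without the second *aal1∆* library. It was 1.34 without the first *aal1-pOE* library and 2.63 without the second, settings added after the data were seen. Wild type, at 17.1 ± 8.43 CPM, lay under the floor, so no fold is given for it. The summed counts of *aal1-pOE* and wild type, 16 and 3, gave a ratio of 5.39 per library total (95% interval 1.54 to 28.9, counting error only).

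*ght1* was too rare to enter the main test. When all 5174 RNAs with a count were tested, its adjusted p was 0.988 for *aal1-pOE* against *aal1∆* (unadjusted 0.0208), 1 for wild type against *aal1∆* and 0.938 for *aal1-pOE* against wild type in edgeR. *ght1* is in the lists of top-ranked RNAs that the study drew up from these same libraries, so its direction here is not independent evidence. The smallest p that an exact permutation test of 2 libraries against 2 can give is 0.333, two-sided, so that test cannot pass the threshold for any member.

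*ght6*, annotated as a glucose and fructose transporter gene (SPCC1235.13, chrIII:204733-206717, plus strand, 1 exon), had 0 counts among the 566237 of all libraries. The limit of 3 counts is 0.154% of the *ght5* counts. Only 6 of its 1919 stretches of 67 nucleotides occur at another place, so few reads of it would be left out for that reason. The lncRNA SPNCRNA.1118 covers all 1985 nucleotides of *ght6* on the opposite strand. It was counted 1 and 6 times in wild type, 3 and 0 in *aal1-pOE*, against 25 and 4 in *aal1∆*, and was looked up after its values were seen, with no test. SPNCRNA.1121, which shares 731 nucleotides with *ght1* on the opposite strand, had at most 3 counts in a library. The mapping and counting steps name opposite strand modes, so the strand that was counted was assumed and not tested. On the strand assumed, *aal1* had 9540 and 20832 counts in *aal1-pOE*, and SPNCRNA.401, annotated opposite to it, had 630 and 846.

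No hexose transporter mRNA passed the test in any comparison. Of the 5 members 3 (*ght3*, *ght5* and *ght8*) had enough counts to be tested, and 0 of these 3 had an adjusted p under 0.05 in edgeR, where 0.15% of all tested RNAs did for wild type against *aal1∆*, 0.376% for *aal1-pOE* against *aal1∆* and 0.226% for *aal1-pOE* against wild type. For the mean of wild type and *aal1-pOE* against *aal1∆* 0 of 3 passed, against 0.226% of all tested RNAs. At an unadjusted p under 0.05 there were also 0 of 3 members, where 2.48%, 5.42%, 4.21% and 3.54% of all tested RNAs passed in these 4 comparisons, and DESeq2 called 0. For *aal1-pOE* against wild type this count changed with the setting. *ght3* had an unadjusted p under 0.05 in 8 of 16 alternatives (lowest 0.0159, without the second *aal1-pOE* library, with adjusted p of at least 0.778 in edgeR or DESeq2 in all 16), and *ght5* in 1 of 16 (0.0213, with *aal1*, SPNCRNA.401, rRNA and mitochondrial genes left out). The median log2 fold change of the 3 was -0.12 in wild type and 0.46 in *aal1-pOE* against *aal1∆*, beside 0 and 0.01 over all tested RNAs. The middle 80% of all tested RNAs lay between -1.06 and 0.97 in the first of these comparisons and between -1.13 and 1.11 in the second, and the 3 members were inside both ranges. Both comparisons share the *aal1∆* libraries. For *aal1-pOE* against wild type the median of the 3 was 0.58, beside 0.03 over all tested RNAs, and the middle 80% lay between -1.11 and 1.10. *ght3*, at 1.45, was above that range, and *ght5* and *ght8* were inside it. The plot of fold changes sets the members beside the other family genes.

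**Figure D2:**
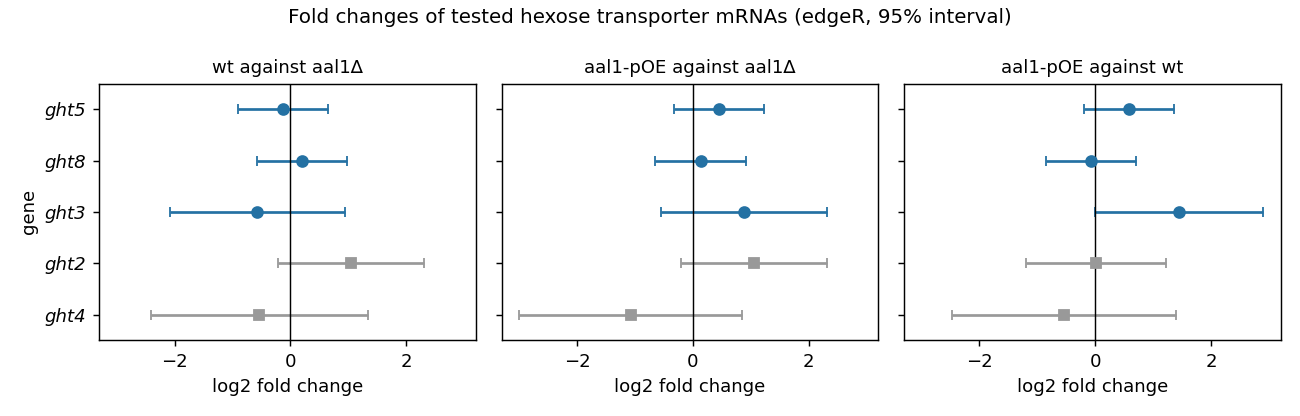
Log2 fold changes of the tested hexose transporter mRNAs and of *ght2* and *ght4* in each comparison, with points for the edgeR estimate and bars for its 95% interval, on a horizontal log2 axis. Every interval of a member includes 0, the narrowest margin being that of *ght3* in *aal1-pOE* against wild type (-0.0013 to 2.90).

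The make-up of the hexose transporter pool within a library does not depend on scaling. Together the 5 members took 0.816% and 0.968% of all counts on nuclear mRNAs in wild type, 1.40% and 0.950% in *aal1-pOE*, against 0.829% and 0.963% in *aal1∆*. The groups overlapped, and the first *aal1-pOE* library alone was above 1%. Within the pool *ght5* held 61.2% and 66.2% in wild type, 67.8% and 72.7% in *aal1-pOE*, against 71.6% and 63.9% in *aal1∆*. *ght8* held 36.3% and 29.6%, 23.2% and 22.0%, and 25.7% and 29.7%. The share of *ght5* was thus highest and that of *ght8* lowest in the second *aal1-pOE* library. *ght3* held 2.30% and 3.66% in wild type, 7.36% and 3.94% in *aal1-pOE*, against 2.70% and 6.39% in *aal1∆*. Both *aal1-pOE* libraries thus lay above both wild-type libraries, and *aal1∆* overlapped with both strains. How often the share of another RNA separates in this way was not computed.

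The ratio of *ght5* to *ght8* counts separated the strains in part. It was 1.68 (exact 95% binomial interval 1.39 to 2.04) and 2.24 (1.77 to 2.84) in wild type, 2.92 (2.44 to 3.51) and 3.31 (2.56 to 4.32) in *aal1-pOE*, against 2.79 (2.37 to 3.30) and 2.15 (1.59 to 2.94) in *aal1∆*. The means were 1.96 ± 0.392, 3.11 ± 0.275 and 2.47 ± 0.450 (SD, n = 2 each). Both *aal1-pOE* libraries lay above all the others, while wild type and *aal1∆* overlapped. The margin was narrow, 2.92 in the first *aal1-pOE* library beside 2.79 in the first *aal1∆* library, with overlapping intervals. How often the ratio of other pairs of RNAs separates in this way was not computed. The exact two-sided permutation p was 0.333 for *aal1-pOE* against either strain, the smallest that 2 against 2 allows, and 0.667 for wild type against *aal1∆*. Per kilobase of transcript the means were 2.38 in wild type, 3.79 with the *aal1-pOE* plasmid and 3.01 in *aal1∆*. Divided instead by the number of stretches found once in the genome, which differs between the genes, they were 2.55, 4.05 and 3.21, an alternative added after the data were seen.

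**Figure D3:**
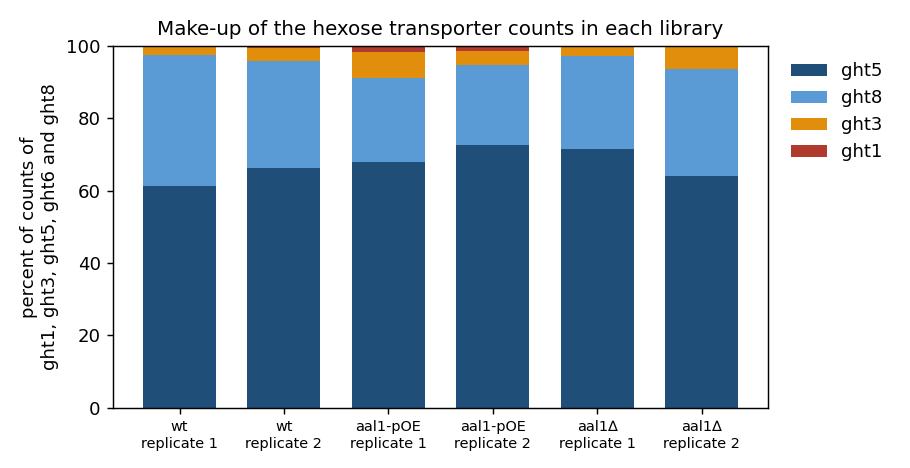
Share of each hexose transporter mRNA among the counts of the 5 members in each library, in percent, as stacked bars. *ght5* holds the largest share in all 6 libraries, from 61.2% in the first wild-type library to 72.7% in the second *aal1-pOE* library.

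Of the 5 genes 4 lie on chromosome III within 30463 nucleotides, in the order *ght6*, *ght5*, *ght8* and *ght1*. *ght5* and *ght8* are 7580 and 21603 nucleotides from the start of *ght6*, and *ght1* begins after 27555. The span contains 14 genes of the count table, of which 10 had a count. The other genes between the members had at most 40 counts each over all libraries, the highest being SPCC1235.17, beside 1954 for *ght5* and 783 for *ght8*. High counts were thus limited to these 2 transporter genes within the span, and *ght6* and *ght1*, at its ends, had 0 and 19.

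**Figure D4:**
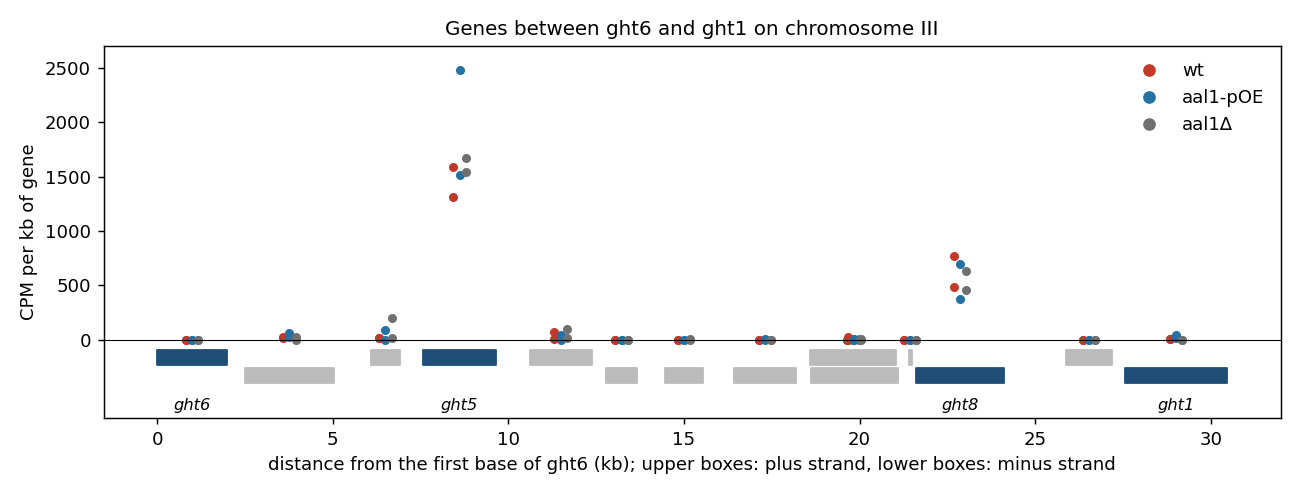
Map of the chromosome III span that holds *ght6*, *ght5*, *ght8* and *ght1*. The horizontal axis gives distance from the start of *ght6* in kilobases. The vertical axis gives CPM per kilobase of gene, with points for the libraries of each strain. *ght5* lies between 1315 and 2477 and *ght8* between 378 and 775. Summed over the 6 libraries, these genes had 1954 and 783 counts, and the other genes between the members at most 40 each.

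The members carried no long stretch complementary to *aal1*. With pairing of A to U and G to C and no gaps, the longest was 10 nucleotides in *ght1*, *ght5* and *ght8* and 12 in *ght3* and *ght6*. The stretches of *ght5*, the most recovered member, and of *ght3* and *ght6*, which had the longest, are shown with the pairing bases in lower case because all of them pair.
ght5, chrIII:214299-214308, plus strand: ttaaaagtct
ght3, chrI:84365-84376, plus strand: acaaatatgtaa
ght6, chrIII:205185-205196, plus strand: tcaattgttcat
Among mRNAs within 20% of the same length, 96.1% had a complementary stretch at least as long as that of *ght5*, 23.9% one as long as that of *ght3* and 26.1% one as long as that of *ght6*. This is a description of the letters and says nothing about contact between the RNAs.

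The other family genes were likewise recovered without *aal1*. *ght2*, a glucose and fructose transporter gene, was counted 44 and 25 times in wild type, 45 and 18 in *aal1-pOE*, against 41 and 4 in *aal1∆*. Its log2 fold change against *aal1∆* was 1.04 (SE 0.632, adjusted p = 1 in edgeR) in wild type and 1.06 (SE 0.633, adjusted p = 1) in *aal1-pOE*. *ght4*, which is 81.8% identical to *ght3* in its coding sequence, had 16 and 10, 6 and 9, and 23 and 13 counts, and its fold changes were -0.54 (SE 0.937) and -1.07 (SE 0.969). *ght7* had 0 and 0, 4 and 0, and 31 and 1 counts, nearly all of them in the first *aal1∆* library, and was not tested.

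The steps that follow uptake of the sugar gave a similar picture. All 13 mRNAs for hexose phosphorylation and glycolysis were tested and 0 passed in either direction in any comparison, with a median log2 fold change against *aal1∆* of 0.06 in wild type and 0.19 in *aal1-pOE*. Among them were *hxk2* (0.41 in wild type) and *hxk1* (-0.62), which encode hexokinases, *pgk1* (0.33), which encodes phosphoglycerate kinase, and *tpi1*, which encodes triosephosphate isomerase. *tpi1* was at 1.29 (SE 0.697) in wild type and at 1.74 (SE 0.694, unadjusted p = 0.0142, adjusted p = 0.822 in edgeR) in *aal1-pOE*. In *aal1-pOE* against *aal1∆* *hxk1* was at 0.69 (SE 0.619). Against wild type, *hxk1* in *aal1-pOE* was at 1.31 (SE 0.626, unadjusted p = 0.0397, adjusted p = 0.995 in edgeR). Of 7 genes for other carbon sources that glucose represses, 6 were tested and 0 passed, with medians of 0.15 and -0.09. They include *dak2* (1.30 in wild type, SE 0.605, unadjusted p = 0.0352, adjusted p = 1, but -0.26 in *aal1-pOE*) and *dak1* (0.19), for dihydroxyacetone kinases, *agl1* (0.23), for an alpha-glucosidase, and *gld1*, for glycerol dehydrogenase, at -0.86 in *aal1-pOE* (unadjusted p = 0.0342, adjusted p = 0.909). For *aal1-pOE* against wild type *dak2* was at -1.56 (SE 0.607, unadjusted p = 0.0122, adjusted p = 0.995 in edgeR).

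Of 20 genes for glucose sensing and for control of Ght5, 16 were tested and 0 passed, with medians of -0.24 in wild type and -0.47 in *aal1-pOE* against *aal1∆*. In wild type *gpa2*, the G-protein alpha subunit of glucose sensing, was at -1.38 (SE 1.17). *pka1*, the catalytic subunit of protein kinase A, was at -1.37 (SE 1.45). *git3*, the glucose receptor, was at 0.66 (SE 0.820), but at -0.56 (SE 0.858) in *aal1-pOE*. *tor1*, a TOR kinase, was at 0.95 (SE 0.607) in wild type. The counts of *gpa2* and *pka1* were low, at most 17 and 24 in a library. Of 22 genes listed by symbol as other plasma membrane transporters, 11 were tested and 0 passed, with medians of -0.06 and -0.08. The *sod2* matched by symbol (SPAC1486.01, -1.06 in wild type) encodes a superoxide dismutase and not a transporter. These counts and medians include it. *vht1*, for biotin uptake, was at -1.24 (SE 1.02) in wild type. *trk2*, for potassium uptake, was at -0.49 (SE 0.744) and *sut1*, for sucrose or maltose uptake, at 0.75 (SE 1.23). The fold changes of the 3 tested members against *aal1∆* ran from -0.57 to 0.88. *ght1*, which was not in the main test, is not covered by this range.

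The RNAs whose level varied most like *ght5*, which had the most counts of the members, were *snz1*, a gene of vitamin B6 synthesis (Pearson r = 0.977 over 6 libraries), *rpl15*, for a protein of the large ribosomal subunit (0.962), and *knh2* (0.952). Each had at most 66 counts in a library. In total 7 tested RNAs had a correlation with *ght5* above 0.9. With 6 libraries that share depth and rRNA content as sources of variation, this is a description and was not tested.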

How the data were processed

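RNA from *aal1* pull-downs of 3 strains was sequenced on Day 6 of stationary phase. The authors sequenced pairs of 75 bases, trimmed the first 8, aligned them with HISAT2 2.2.1 in forward-reverse mode and counted reads per gene with HTSeq 0.12.3 in reverse mode, and the deposited table holds these raw counts. No collapsing of molecular indices is described. The genome build was not given in the sources used here. Identifiers were matched to ASM294v3 (6852 of 7001).

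Counts of all 6 libraries were normalised by TMM and filtered with filterByExpr (1329 RNAs kept). They were fitted with edgeR 4.0.16 (glmQLFit, glmQLFTest) in R 4.3.3, with Benjamini-Hochberg adjustment over all RNAs kept and a threshold of 0.05. The scripts were tested on simulated data. Depth was 40653 to 175263 counts per library. Poisson, binomial and count-ratio intervals and the 3-count limits cover counting error only. The intervals of fold changes come from the edgeR fit and include the spread between libraries of a strain. For these intervals and the edgeR p-values, that spread was estimated largely across all tested RNAs, as each strain had 2 libraries. Alternatives were other filters, normalisations and tests, DESeq2 1.42.0, only the strains compared, a replicate block and each library left out. The members and gene lists were chosen with earlier results of these data known. Named beside the members were *ght2*, *ght4*, *ght7*, *aal1*, SPNCRNA.401, up to 4 genes per list with the smallest p in wild type against *aal1∆*, and the 3 RNAs most like the member with the most counts. Any gene named beyond these was chosen after its values were seen.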

Additional observations from a re-analysis of the deposited data

How the results depend on the processing

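No hexose transporter mRNA was called under any of the 16 alternatives (15 for the mean of wild type and *aal1-pOE*), and 184 of 193 recomputed fold changes kept their direction and their side of the threshold. The 9 that turned are small or rest on 1 library, and none was called before or after. Levels in TMM-scaled CPM stayed within the spread between libraries. With library sizes alone *ght8* in *aal1-pOE* against *aal1∆* was at -0.0074 in place of 0.13. Leaving out a library gave *ght5* in wild type against *aal1∆* between -0.33 and 0.11, *ght3* between -1.19 and 0.15, *ght8* in *aal1-pOE* against *aal1∆* between -0.17 and 0.39 and against wild type between -0.42 and 0.18, and *ght3* in the mean of both strains against *aal1∆* between -0.46 and 0.88. Among these, *ght5* reached 0.11 without the first wild-type library, *ght3* 0.15 without the second *aal1∆* library, and *ght8* -0.17 without the first *aal1-pOE* library, -0.03 without the first *aal1∆* library and 0.18 (against wild type) without the second *aal1-pOE* library. *ght3* in the mean was at -0.10 without the second wild-type library, -0.26 without the first *aal1-pOE* library and -0.46 without the first *aal1∆* library. The cause was not tested.

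Over all tested RNAs, the calls ranged from 0 to 4 for wild type against *aal1∆* (2 in the main test), 2 to 6 for *aal1-pOE* against *aal1∆* (5), 0 to 3 for *aal1-pOE* against wild type (3) and 1 to 5 for the mean of both against *aal1∆* (3). Same-numbered libraries did not deviate together (correlations of 0.047, -0.052 and 0.089). In libraries this shallow, that does not show whether they shared a processing step. The fit with the replicate block called 0 members. Depth limits *ght1* and *ght3*, with at most 51 counts in a library. Fold changes within the intervals above remain compatible with these data.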
